A study of Mus musculus with 12 samples.

Results

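Short-lived effector cells (SLEC) are the CD8 T cells that dominate the peak of an acute response and then mostly die. Here WT SLEC taken on day 14 of an infection were set against WT SLEC taken on day 7, which spans the fall in cell number called contraction. The comparison uses 4 of the series' 12 libraries, 2 per day, and was chosen by label alone. Of 55421 genes in the count table, 14460 passed the low-count filter and were tested.

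All libraries came from OT-I cells, CD8 T cells with a transgenic receptor for an ovalbumin peptide. The cells were transferred into host mice that were infected with Listeria monocytogenes expressing ovalbumin (LM-OVA), and were sorted back from the spleen. The groups used were WT SLEC on day 14, WT SLEC on day 7, KO SLEC on day 14 and KO SLEC on day 7, where WT and KO refer to the labelled Rroid2 genotype. WT and KO memory precursor cells (MPEC) on day 14 entered the same fit. The symbol Rroid2 is not in the table analysed, so the genotype labels were not checked by a count of that gene. The sources used here do not give mouse ages, the host strain, the sort gates or the design of the deletion. The labels number the libraries of a group 1 and 2 and do not say whether they came from separate mice, so p-values measure the spread between libraries, which may be technical. A bulk library cannot tell fewer cells of a type from less RNA per cell.

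After an acute infection is cleared, CD8 T cells leave the cell cycle, lower the demands of growth and killing, and most effector cells die. SLEC carry the lectin-like receptor KLRG1 and little interleukin-7 receptor, while MPEC show the reverse pattern and feed the long-lived memory pool. Cell cycle genes and replication-dependent histone genes are transcribed in cells that are dividing, and the survival protein BCL2 together with factors such as BACH2 and BCL6 is tied to the resting, memory-prone state.

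The markers fitted the labelled cells. Cd8a, which encodes a chain of the CD8 coreceptor, was at 928 and 856 CPM (counts scaled to library size) on day 14, against 1115 and 870 CPM on day 7. Klrg1 was at 152 and 132 CPM on day 14, against 322 and 212 CPM on day 7. WT MPEC held 1.81 and 2.54 CPM of it. Il7r, the interleukin-7 receptor, was at 28.6 and 25.6 CPM on day 14, against 14.2 and 18.7 CPM on day 7, while WT MPEC held 760 and 998 CPM. Cd4 was at or below 0.957 CPM in all 4 WT SLEC libraries. Total counts were 12427019 and 13740911 on day 14, against 14026594 and 12346072 on day 7, so that 3 counts, taken as the detection floor, equal 0.19 to 0.238 CPM. The mitochondrial ribosomal RNA genes took 9.08% and 8.0% of counts on day 14, against 18.3% and 12.6% on day 7.

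The day 14 WT SLEC libraries also carried RNA of other cells. Summed over 23 B cell genes, the level was 1017 and 3611 CPM on day 14, against 35.6 and 118.8 CPM on day 7. Day 14 replicate 2 therefore held the most B cell RNA of the 12 libraries, and the sum was between 38.6 and 510 CPM in the 8 KO and MPEC libraries. The defining B cell genes Ms4a1 and Cd79a were at 0 in day 7 replicate 1. The neutrophil genes summed to 80.8 and 9.37 CPM on day 14, against 0.159 and 0.768 CPM on day 7, so that here day 14 replicate 1 was the highest, and Ngp, S100a8 and Lcn2 were at 0 in both day 7 libraries. Monocyte and macrophage genes summed to 142 and 180 CPM on day 14, against 81.2 and 82.0 CPM on day 7. Erythroid genes summed to 33.6 and 10.1 CPM on day 14, against 6.84 and 22.1 CPM on day 7, and overlapped between days. By the test described further on, some tested members of these and other lists were called higher on day 14. They were 2 of 7 plasma cell genes, 3 of 7 neutrophil genes and 5 of 14 monocyte and macrophage genes. So were 1 of 2 dendritic cell genes (Ly6d), 2 of 8 NK cell genes and 2 of 8 CD4 and γδ T cell genes (Cxcr5 and Zbtb7b). The low-count filter passed 7 of 11 plasma cell, 7 of 13 neutrophil and 2 of 10 dendritic cell genes. Ngp, Lcn2 and Ighg2c, at 0 in both day 7 libraries, passed it through other libraries, so these counts are not independent support. In the same lists Cd68 of the macrophage list and Gzma of the NK list, which T cells also express, were called lower, and 0 of 8 erythroid and 0 of 4 platelet genes were called, with 0 and 2 at an unadjusted p under 0.05. DESeq2 called 0 neutrophil, 2 macrophage, 0 erythroid and 0 platelet genes. Ly6d (6.26 and 30.2 CPM) and Cxcr5 (17.2 and 46.6 CPM) were higher in day 14 replicate 2, as the B cell genes were. Zbtb7b was also called higher in KO SLEC. With a term for B cell RNA in the fit, described further on, the dendritic cell list and the CD4 and γδ T cell list had 0 calls. The source of these rises was not tested. The plot of these sums shows each library.

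**Figure D1:**
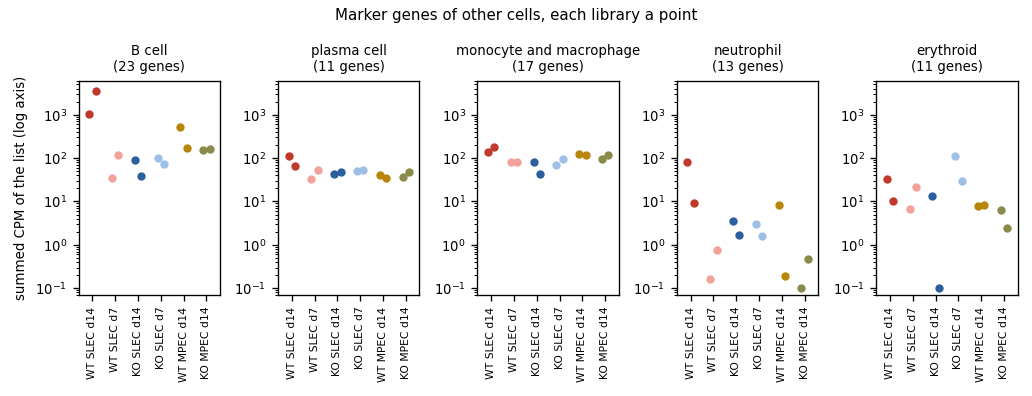
Summed CPM (log axis) of the B cell, plasma cell, monocyte and macrophage, neutrophil and erythroid gene lists in each of the 12 libraries, with values of 0 drawn at 0.1. The 2 WT SLEC day 14 libraries hold 1017 and 3611 CPM of B cell RNA and stand above the other 10.

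The gene groups furthest below 0 on day 14 were those of cell division, and promoters of 5 of these genes are shown first because they carry known cell cycle elements. The cell cycle homology region (CHR, TTTGAA), which is bound by the DREAM and MuvB complexes, marks many genes of G2 and mitosis. The CCAAT box (CCAAT) is bound by NF-Y, and an octamer (ATTTGCAT) is known from histone H2B promoters. Below are the RefSeq windows on GRCm38.p6 from 250 bases before to 50 bases after the annotated start, written 5′ to 3′ on the gene's strand, with exact matches on either strand in capitals. Ube2c, Hmmr and Cenpf stand for the mitotic genes and Hist1h1b and Hist1h2bb for the histones. All 5 windows hold CHR (TTTGAA or its complement TTCAAA) and CCAAT (or ATTGG), and Hist1h2bb also holds the octamer. The windows are chr2:164769679-164769978 (plus strand) for Ube2c, chr11:40733388-40733687 (minus) for Hmmr, chr1:189688037-189688336 (minus) for Cenpf, chr13:21780576-21780875 (minus) for Hist1h1b and chr13:23746484-23746783 (plus) for Hist1h2bb.
Ube2c: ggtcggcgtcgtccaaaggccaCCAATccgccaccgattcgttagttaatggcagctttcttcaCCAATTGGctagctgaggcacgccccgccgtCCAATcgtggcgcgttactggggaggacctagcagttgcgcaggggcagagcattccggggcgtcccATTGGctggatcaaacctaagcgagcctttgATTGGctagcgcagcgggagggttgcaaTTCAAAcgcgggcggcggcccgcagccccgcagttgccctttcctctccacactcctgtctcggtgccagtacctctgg
Hmmr: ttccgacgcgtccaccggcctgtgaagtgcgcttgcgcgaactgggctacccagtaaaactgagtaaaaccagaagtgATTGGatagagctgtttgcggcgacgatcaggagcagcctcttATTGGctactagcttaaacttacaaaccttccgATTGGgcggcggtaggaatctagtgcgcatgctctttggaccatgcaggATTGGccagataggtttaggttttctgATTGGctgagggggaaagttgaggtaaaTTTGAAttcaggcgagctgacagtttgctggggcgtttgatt
Cenpf: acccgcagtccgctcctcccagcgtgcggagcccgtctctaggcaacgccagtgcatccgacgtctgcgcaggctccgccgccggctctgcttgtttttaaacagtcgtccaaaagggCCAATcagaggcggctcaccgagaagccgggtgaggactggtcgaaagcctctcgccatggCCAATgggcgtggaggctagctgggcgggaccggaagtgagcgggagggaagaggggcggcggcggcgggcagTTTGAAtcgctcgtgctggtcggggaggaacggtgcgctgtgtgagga
Hist1h1b: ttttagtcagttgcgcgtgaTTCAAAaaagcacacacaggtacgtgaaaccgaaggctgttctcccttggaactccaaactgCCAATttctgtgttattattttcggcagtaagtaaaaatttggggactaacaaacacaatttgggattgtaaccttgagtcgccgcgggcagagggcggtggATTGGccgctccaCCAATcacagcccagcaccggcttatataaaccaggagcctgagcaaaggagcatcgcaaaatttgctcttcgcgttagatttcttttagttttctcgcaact
Hist1h2bb: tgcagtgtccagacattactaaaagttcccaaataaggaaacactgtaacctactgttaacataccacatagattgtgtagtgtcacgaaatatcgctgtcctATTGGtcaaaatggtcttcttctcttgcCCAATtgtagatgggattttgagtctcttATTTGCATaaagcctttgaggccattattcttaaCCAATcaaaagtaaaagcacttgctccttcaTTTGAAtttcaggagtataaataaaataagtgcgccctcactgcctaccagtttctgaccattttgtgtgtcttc
In Ube2c, matches on the 2 strands overlap at one place, so its 6 CCAAT matches show as 5 runs of capitals.

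CHR letters were found in the windows of 23 of 31 G2 and mitosis genes that had a window, against 20.2% of 27025 genes and 17.9% of 32851 windows. CCAAT was found in 24 of the 31, and in 32 of 36 clustered histone genes, against 41.1% of genes and 37.4% of windows. The octamer was found in 7 of the 36 histone genes, against 1.97% of genes and 1.74% of windows. E2F letters (TTTGGCGC or TTTCCCGC, in 0.514% and 1.07% of windows) were found in 10 of 29 S phase genes and in 0 of the 31 G2 and mitosis genes, against 1.8% of genes. The CHR letters were not limited to the mitotic genes. In other lists 6 of 57 nuclear respiratory chain genes and 2 of 30 proteasome genes with a window held the CHR letters. So did 6 of 14 killer lectin-like receptors (42.9%) and 6 of 18 cytokine receptors (33.3%), so other lists lay on both sides of the all-gene share. Among the clustered histone genes 15 of 36 held them, and among the S phase genes 5 of 29 did. These counts describe letters and not occupied sites.

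Across the genome, 1437 of 14460 genes (9.94%) differed between the days in WT SLEC by edgeR's quasi-likelihood test at a Benjamini-Hochberg adjusted p under 0.05. These genes are referred to as called. Of them 678 (4.69%) were higher on day 14 and 759 (5.25%) were lower. The called genes were large changes in many cases, with 433 higher and 412 lower by more than 2-fold. The median log2 change was 1.34 over the called rises and −1.07 over the called falls, against 0.01 over all genes tested. Both day 14 libraries lay above both day 7 libraries in 27.1% of all genes and below in 24.3%. Every called gene had days that did not overlap, so such a gap adds no support to a call. Protein-coding genes made up 1350 of the called genes.

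KO SLEC give a second, separate pair of days. There 2487 genes (17.2%) were called, of which 1114 (7.7%) were higher and 1373 (9.5%) lower on day 14. Of the WT falls, 620 were also called lower in KO SLEC, which is 81.7% of the WT falls, 45.2% of the KO falls and 4.29% of all genes. Of the WT rises, 323 were also called higher in KO SLEC, which is 47.6% of the WT rises, 28.99% of the KO rises and 2.23% of all genes. The sign was the same in KO SLEC for 757 of 759 WT falls and for 522 of 678 WT rises. The WT falls had a median log2 change of −1.26 in KO SLEC, and the WT rises one of 0.80. When the change itself was compared between genotypes, 1 gene (0.00692%), Ola1, passed, with 951 genes at an unadjusted p under 0.05 and 28 called by DESeq2.

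**Figure D2:**
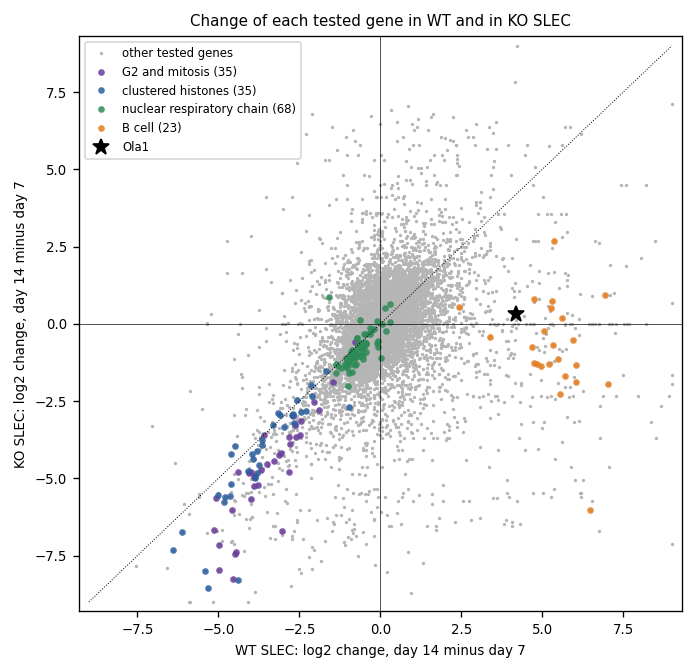
Log2 change from day 7 to day 14 in WT SLEC (x axis) against KO SLEC (y axis) for 14460 genes, with 35 G2 and mitosis, 35 clustered histone, 68 nuclear respiratory chain and 23 B cell genes and Ola1 coloured, and 10 genes beyond the axes drawn at the edge. The cell cycle and histone genes lie low in both genotypes, and the B cell genes lie high in WT, where 19 of 23 were called and 0 were called in KO.

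Genes of G2 and mitosis were far lower on day 14. Of 35 tested, 34 were called lower and 0 higher, with a median log2 change of −3.59 against 0.01 over all genes, and all 35 had both day 14 libraries below both day 7 libraries. All 34 were also called lower in KO SLEC, where the list's median was −4.80. Ube2c, the ubiquitin-conjugating enzyme that works with the anaphase-promoting complex, was at 1.18 and 1.90 CPM on day 14, against 20.1 and 48.9 CPM on day 7 (log2 change −4.46 ± 0.44 SE, adjusted p = 7.21e-06 by edgeR). Hmmr, a spindle-associated hyaluronan receptor, was at 1.32 and 1.65 CPM on day 14, against 29.8 and 66.0 CPM on day 7 (−4.99 ± 0.48). Both days were well apart for each gene, with day 7 replicate 2 the highest library.

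Kinetochore and spindle genes fell with them. Cenpf and Cenpe encode large kinetochore proteins of mitosis. Cenpf was at 4.93 and 13.2 CPM on day 14, against 88.2 and 168 CPM on day 7 (−3.79 ± 0.41, adjusted p = 3.78e-04 by edgeR). Cenpe was at 7.95 and 16.3 CPM on day 14, against 93.1 and 202 CPM on day 7 (−3.59 ± 0.40). Cenpa, the histone H3 variant that marks centromeres, fell less, to 24.4 and 20 CPM on day 14, against 77.3 and 87.0 CPM on day 7 (−1.89 ± 0.20). The microtubule depolymerase Kif2c was at 0.147 and 1.202 CPM on day 14, against 13.2 and 37.5 CPM on day 7, and day 14 replicate 1 was below the floor of 3 counts. Bub1b, a spindle checkpoint kinase, was the member that did not pass, at 7.36 and 8.42 CPM on day 14, against 28.4 and 105 CPM on day 7 (adjusted p = 0.0508 by edgeR). Mki67, the proliferation antigen Ki-67 (chr7:135689784-135716361, minus strand), was at 57.5 and 68.2 CPM on day 14, against 513 and 1490 CPM on day 7 (−3.99 ± 0.62, adjusted p = 0.0100 by edgeR). Its call was lost without day 14 replicate 1 or replicate 2, with an adjusted p of up to 0.103.

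Replication-dependent histone genes, which are transcribed in S phase from gene clusters and encode the bulk of chromatin histones, fell by similar amounts. Of 35 tested, 33 were called lower and 0 higher, with a median of −3.80, and all 33 were also called lower in KO SLEC, where the median was −4.12. Hist1h1b, a linker histone, was at 13.5 and 15.6 CPM on day 14, against 284 and 546 CPM on day 7 (−4.83 ± 0.35, adjusted p = 2.85e-05 by edgeR), the largest fall among genes above the expression minimum for naming. Among the core histones, Hist1h2bb was at 3.61 and 3.16 CPM on day 14, against 54.4 and 132 CPM on day 7. Hist1h3c was at 0.294 and 0.443 CPM on day 14, against 12.5 and 40.5 CPM on day 7 (−6.11 ± 0.63). The linker histones differed among themselves, and the falls were smaller for 2 of them. Hist1h1c was at 513 and 467 CPM on day 14, against 1452 and 1670 CPM on day 7 (−1.67 ± 0.15), and Hist1h1e was at 125 and 130 CPM on day 14, against 415 and 714 CPM on day 7 (−2.15 ± 0.20). Clustered histone genes are close copies of one another, so counts can be split or shared among members, and single members are less certain than the list.

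S phase and DNA replication genes moved less and less evenly. Of 35 tested, 12 were called lower and 0 higher, and 34 had a negative change, with a median of −1.37. All 12 were also called lower in KO SLEC, where 19 were called lower and the median was −1.59. Pcna, the sliding clamp of DNA polymerase, was at 26.1 and 20.3 CPM on day 14, against 52.2 and 65.0 CPM on day 7 (−1.34 ± 0.20, adjusted p = 3.80e-04 by edgeR). The cyclin E gene Ccne2 was at 3.39 and 1.27 CPM on day 14, against 8.03 and 28.95 CPM on day 7 (−3.03 ± 0.61). E2f1, an activator of S phase genes, was at 2.50 and 2.03 CPM on day 14, against 7.79 and 26.7 CPM on day 7 (−2.94 ± 0.55). Tyms, thymidylate synthase, was at 7.80 and 9.11 CPM on day 14, against 18.8 and 43.9 CPM on day 7 (−1.89 ± 0.36). Of the 10 genes with E2F letters, 9 did not pass the test, among them Mcm3, Mcm5, Mcm6 and Mcm7 of the replicative helicase, and Cdc6 was called lower.

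The spread between the day 7 libraries was wide for these genes. Day 7 replicate 2 was at 2 or more times replicate 1 for 29 of 35 G2 and mitosis genes, 28 of 35 histones and 30 of 35 S phase genes, with median ratios of 2.56, 2.75 and 3.61, against 0.985 over all genes. In KO SLEC on day 7 the count was 0 in each list. The S phase count was 31 without day 7 replicate 1, 7 without day 7 replicate 2 (5 lower and 2 higher), 4 without day 14 replicate 1 and 2 without day 14 replicate 2. The G2 and mitosis and histone counts stayed at 22 or more when any one library was left out, and both were 22 when the 4 WT SLEC libraries were fitted alone.

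Chromatin and cell cycle regulators outside these lists were tested as well. Ezh2, the catalytic subunit of Polycomb complex 2, was at 50.2 and 60.8 CPM on day 14, against 94.5 and 172 CPM on day 7 (−1.26 ± 0.23, adjusted p = 0.00274 by edgeR). Cbx7, a chromobox reader of the Polycomb mark, was at 102 and 132 CPM on day 14, against 66.0 and 47.1 CPM on day 7 (1.05 ± 0.20). These were the called members of 20 DNA methylation and Polycomb genes, a count that was 6 without day 7 replicate 1 (4 higher and 2 lower), 4 without day 7 replicate 2 and 1 without day 14 replicate 2. The called share of the DNA methylation and Polycomb list was 10%, against 9.94% over all genes. Of 19 cell cycle inhibitor and quiescence genes, 2 were called higher and 2 lower, and the called cyclin-dependent kinase inhibitors were the falls. This count was 0 without day 14 replicate 2. Cdkn2c, the inhibitor p18, was at 3.53 and 2.72 CPM on day 14, against 7.39 and 14.7 CPM on day 7 (−1.83 ± 0.45), and Cdkn1a, the inhibitor p21, was at 1.77 and 0.570 CPM on day 14, against 3.66 and 9.68 CPM on day 7 (−2.56 ± 0.69). Txnip, an inhibitor of thioredoxin and glucose uptake, was at 573 and 565 CPM on day 14, against 397 and 316 CPM on day 7 (0.67 ± 0.15), and Tsc1, a brake on mTORC1, was at 70.2 and 77.0 CPM on day 14, against 44.4 and 45.8 CPM on day 7 (0.71 ± 0.17).

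**Figure D3:**
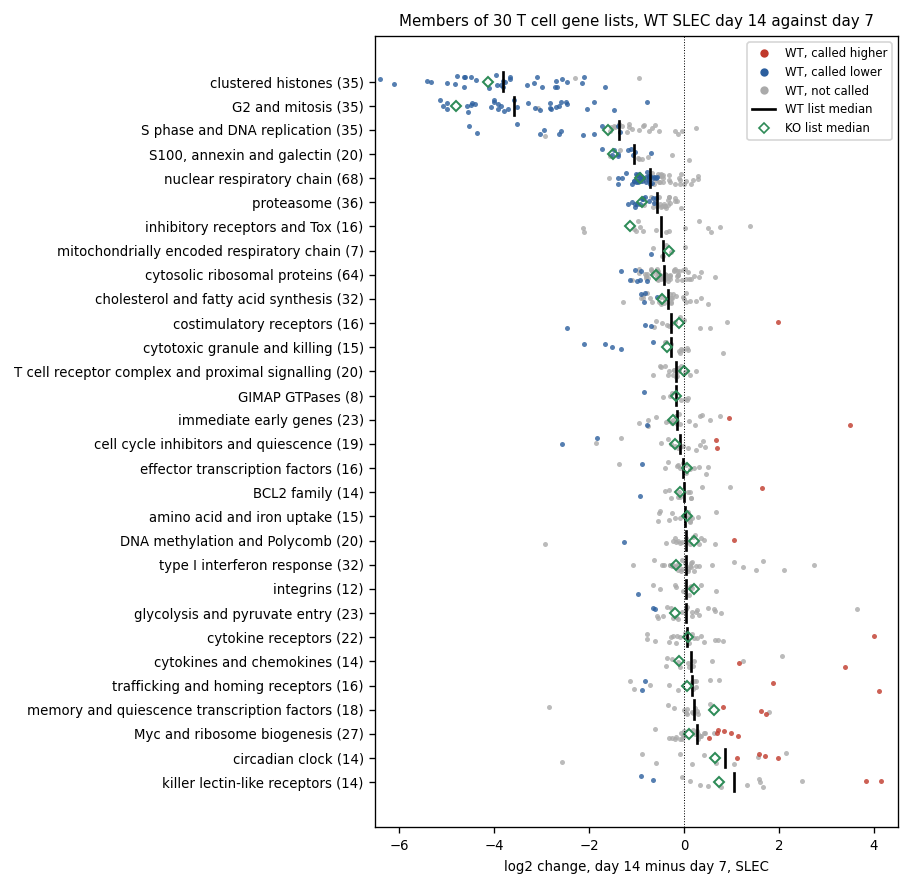
Log2 change from day 7 to day 14 in WT SLEC for the tested members of 30 T cell gene lists, coloured by call, with a black bar at the WT list median and a green diamond at the KO list median. The G2 and mitosis and histone lists lie lowest, at medians of −3.59 and −3.80, and most other lists lie within 1 log2 unit of 0.

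Nuclear genes of mitochondrial respiration were lower as a group. Of 68 nuclear genes of the respiratory chain, 36 were called lower and 0 higher, 62 had a negative change, and the median was −0.71. In KO SLEC 45 were called lower and 1 higher, and 34 were called lower in both genotypes. Cox5b, a cytochrome c oxidase subunit (chr1:36691449-36693681, plus strand), was at 54.2 and 45.6 CPM on day 14, against 122 and 137 CPM on day 7 (−1.38 ± 0.16, adjusted p = 6.08e-05 by edgeR). Cox5a was at 30.9 and 27.6 CPM on day 14, against 55.2 and 66.4 CPM on day 7 (−1.06 ± 0.18), and Cox6b1 was at 34.1 and 32.3 CPM on day 14, against 76.7 and 65.5 CPM on day 7 (−1.10 ± 0.19). Uqcrfs1, the Rieske iron-sulfur protein of complex III, was at 41.1 and 37.7 CPM on day 14, against 81.7 and 72.3 CPM on day 7 (−0.97 ± 0.16). The libraries of each day lay close together for these 4 genes and the days did not overlap. The list's count was 9 without day 14 replicate 2, 21 without day 14 replicate 1 and 17 with the 4 WT SLEC libraries alone. Of 7 genes encoded in the mitochondrial genome, 1 was called, mt-Nd5, at 946 and 1043 CPM on day 14, against 1693 and 1531 CPM on day 7.

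Proteasome subunits, which degrade ubiquitinated proteins, were lower by less. All 36 tested had a negative change, with a median of −0.58, and 14 were called lower and 0 higher, all 14 also in KO SLEC. Psmd8 was at 87.9 and 85.8 CPM on day 14, against 172 and 184 CPM on day 7 (−1.03 ± 0.14, adjusted p = 2.22e-04 by edgeR), and Psmd14, the deubiquitinating subunit of the lid, was at 43.9 and 38.2 CPM on day 14, against 89.0 and 97.5 CPM on day 7 (−1.19 ± 0.19). The proteasome count was 6 without day 14 replicate 2 and 7 without day 14 replicate 1. Of 64 cytosolic ribosomal proteins, 7 were called lower and 0 higher, a called share of 10.9%, against 9.94% over all genes. Their median was −0.42, and 55 had a negative change. Rplp0, of the ribosomal stalk, was at 239 and 241 CPM on day 14, against 585 and 478 CPM on day 7 (−1.15 ± 0.17). The ribosomal protein count was 3 without day 14 replicate 2, 4 without day 7 replicate 1, 16 without day 7 replicate 2 and 14 by DESeq2. Ribosomal protein genes have many processed copies that can share reads.

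Some genes that build ribosomes went the other way. Of 27 Myc and ribosome biogenesis genes, 6 were called higher and 0 lower, 4 of them also higher in KO SLEC. The other 21 were not called. Of the 27, 17 had a positive change and 10 a negative one, with a median of 0.28. Utp20, of the small-subunit processome, was at 69.9 and 61.1 CPM on day 14, against 25.4 and 33.6 CPM on day 7 (1.15 ± 0.18, adjusted p = 7.16e-04 by edgeR). Polr1a, the largest subunit of RNA polymerase I, was at 81.4 and 74.9 CPM on day 14, against 42.4 and 45.2 CPM on day 7 (0.84 ± 0.15). Their days did not overlap and both calls held in each fit that left out one library, while the list's count was 2 without day 14 replicate 2 or day 7 replicate 1 and 3 without day 14 replicate 1. Glycolysis genes were mostly uncalled, with 2 of 23 lower, Gpi1 and Ldha, a called share of 8.7%, against 9.94% over all genes. Ldha, lactate dehydrogenase A, was at 126 and 109 CPM on day 14, against 148 and 210 CPM on day 7 (adjusted p = 0.0495 by edgeR), and its call was lost in 11 of the 12 fits that left out a library. The glycolysis count was 0 without day 14 replicate 1 or replicate 2 and 5 without day 7 replicate 1.

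Of 32 cholesterol and fatty acid synthesis genes, 4 were called lower and 1 higher. Hmgcs1, an early enzyme of the mevalonate pathway, was among the falls, at 27.2 and 27.2 CPM on day 14, against 36.95 and 60.7 CPM on day 7 (−0.84 ± 0.22). The rise was Scd1, the stearoyl-CoA desaturase, at 29.8 and 119 CPM on day 14, against 0 and 3.92 CPM on day 7, with day 14 replicate 2 the highest as for the B cell genes. With a term for B cell RNA in the fit, described further on, its log2 change was −1.12 and did not pass. The source of the Scd1 rise was not tested. The list's count was 1 without day 14 replicate 2, 2 without day 14 replicate 1, 10 without day 7 replicate 1 and 3 by DESeq2.

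Genes of the effector programme were lower in part. Of 15 cytotoxic granule and killing genes, 5 were called lower and 0 higher, with a median of −0.27, and 4 were also called lower in KO SLEC. Gzmk (chr13:113171608-113225908, minus strand), granzyme K, was at 39.5 and 35.6 CPM on day 14, against 167 and 155 CPM on day 7 (−2.10 ± 0.18, adjusted p = 5.55e-06 by edgeR), a 4.3-fold lower level. Gzma, granzyme A, was at 990 and 987 CPM on day 14, against 3660 and 2031 CPM on day 7 (−1.52 ± 0.26, adjusted p = 0.00318 by edgeR). Gzmb, granzyme B, was at 530 and 442 CPM on day 14, against 974 and 1455 CPM on day 7 (−1.32 ± 0.32, adjusted p = 0.0274 by edgeR), and lost its call in 7 of the fits that left out a library, with an adjusted p of up to 0.225. For Gzmk, Gzma and Gzmb, both day 14 libraries were close together and below both day 7 libraries. Gzmm, granzyme M, lay the other way and was not called. It was at 16.9 and 15.8 CPM on day 14, against 10.8 and 7.68 CPM on day 7 (0.82 ± 0.38). The list's count was 3 without day 14 replicate 1 and 3 without replicate 2. Serpinb6b, a granzyme inhibitor, was at 73.1 and 54.8 CPM on day 14, against 187 and 215 CPM on day 7 (−1.66 ± 0.19), and Ctsc, the protease that activates granzymes, was at 80.2 and 87.8 CPM on day 14, against 140 and 123 CPM on day 7 (−0.65 ± 0.18). Prf1, perforin, was at 327 and 279 CPM on day 14, against 306 and 265 CPM on day 7, and its ranges overlapped.

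S100, annexin and galectin genes, several of which are known from effector T cells, had 10 of 20 called lower and 0 higher, with a median of −1.05 in WT SLEC and −1.49 in KO SLEC. S100a10, the annexin A2 partner, was at 467 and 428 CPM on day 14, against 1292 and 1040 CPM on day 7 (−1.38 ± 0.19, adjusted p = 2.59e-04 by edgeR). S100a4 was at 28.7 and 22.5 CPM on day 14, against 79.3 and 90.6 CPM on day 7 (−1.74 ± 0.21), and Lgals1, galectin-1, was at 406 and 359 CPM on day 14, against 908 and 1081 CPM on day 7 (−1.38 ± 0.18). Crip1, a small LIM protein, was at 87.4 and 73.2 CPM on day 14, against 181 and 261 CPM on day 7 (−1.46 ± 0.18). The 4 kept their calls in each of the 12 fits that left out one library.

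**Figure D4:**
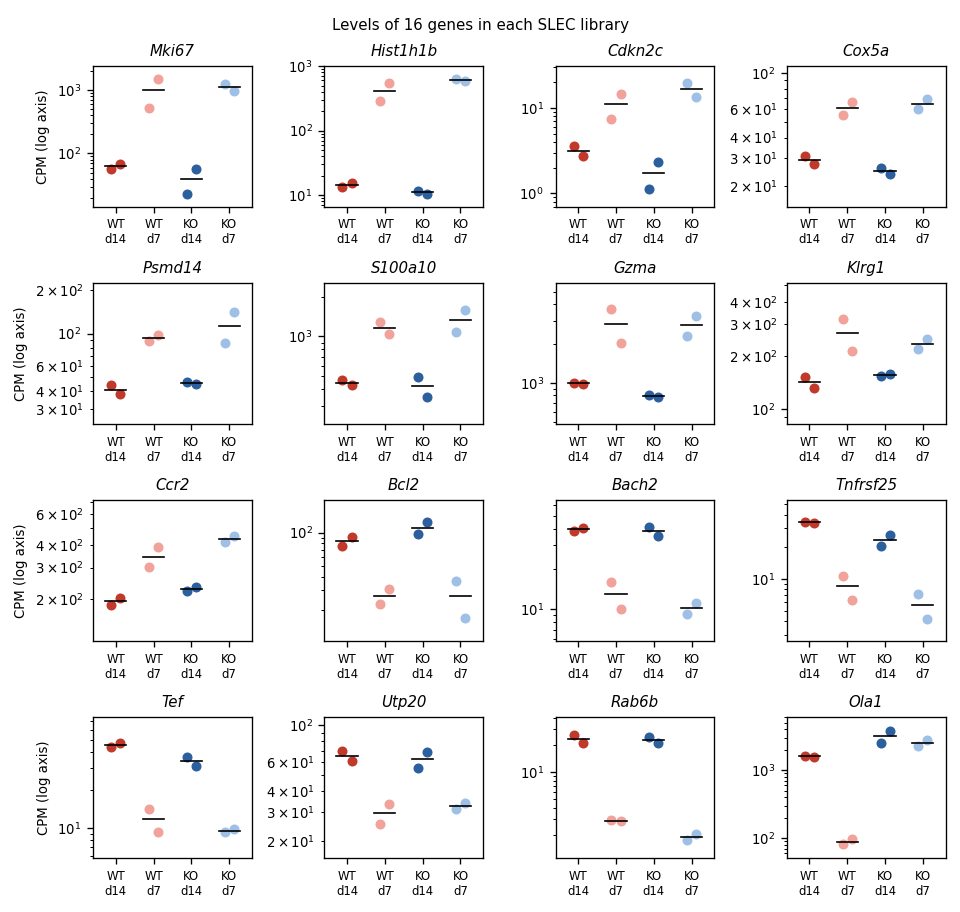
CPM (log axis) of 16 genes in each library of WT and KO SLEC on day 14 and day 7, with a bar at the group mean. Mki67, Hist1h1b, Gzma and S100a10 lie lower and Bach2, Bcl2 and Tef higher on day 14 in both genotypes, and Ola1 is low only in the 2 WT day 7 libraries, at 81.6 and 95.5 CPM.

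Receptors on the cell surface changed one by one. Of 16 trafficking and homing receptors, 2 were called higher and 2 lower. The inflammatory chemokine receptor Ccr2 was lower in both genotypes. It was at 186 and 203 CPM on day 14, against 300 and 390 CPM on day 7 (−0.83 ± 0.15). Among the rises was the lymph node homing receptor Ccr7. Ccr7 was at 2.65 and 4.37 CPM on day 14, against 0 and 0.384 CPM on day 7. B cells express it too, and the level was higher in day 14 replicate 2, but the source of the rise was not tested. With the term for B cell RNA its log2 change was 4.04 and did not pass, and the list's count of called members was 1 without day 14 replicate 2. Among 12 integrins the called member was Itgax, the CD11c chain, a share of 8.33%, against 9.94% over all genes. Itgax was at 283 and 187 CPM on day 14, against 355 and 570 CPM on day 7 (−0.98 ± 0.23).

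Of 14 killer lectin-like receptors, 2 were called higher and 2 lower, all 4 with the same call in KO SLEC, and the list's median was 1.05. The count was 7 without day 7 replicate 1 (6 higher and 1 lower), 2 without day 14 replicate 2 (both higher) and 6 by DESeq2 (4 higher and 2 lower). Klrg1 (chr6:122270596-122282882, minus strand), the defining SLEC receptor, was lower on day 14 (−0.91 ± 0.19, adjusted p = 0.00580 by edgeR), at the CPM given above. Its call was lost without day 14 replicate 2 (adjusted p = 0.0986 by edgeR), and with the B cell term its change was 0.07 and did not pass. Klrd1, the CD94 chain, was at 109 and 129 CPM on day 14, against 214 and 158 CPM on day 7 (−0.64 ± 0.18). The rises were Ly49 family members. Klra9 was at 73.5 and 40.5 CPM on day 14, against 6.84 and 1.23 CPM on day 7 (3.83 ± 0.46), and the pseudogene Klra13-ps was at 24.0 and 20.6 CPM on day 14, against 2.23 and 0.307 CPM on day 7. The Ly49 genes are near-identical copies, so these counts may be shared among them. Of 8 NK cell genes tested, Tyrobp and Klra8 were called higher, Gzma was called lower and 5 were not called. Tyrobp was also called higher in KO SLEC. The source of the Ly49 rises was not tested.

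Of 16 costimulatory receptors, 1 was called higher and 3 lower, all with the same call in KO SLEC. Tnfrsf25, the death-domain receptor for TL1A, was at 34.4 and 33.2 CPM on day 14, against 10.7 and 6.37 CPM on day 7 (1.98 ± 0.28, adjusted p = 2.26e-04 by edgeR). Cd48 was at 187 and 195 CPM on day 14, against 370 and 306 CPM on day 7 (−0.82 ± 0.16), Icos was at 31.6 and 22.7 CPM on day 14, against 41.5 and 45.6 CPM on day 7, and Tnfrsf9, the receptor 4-1BB, was at 2.28 and 0.633 CPM on day 14, against 3.42 and 12.1 CPM on day 7. Of 16 inhibitory receptors and Tox genes, 0 were called, with a list median of −0.49, 7 were at an unadjusted p under 0.05, DESeq2 called 1 and 3 were called lower without day 7 replicate 1, and in KO SLEC 3 were called lower and 1 higher. Havcr2, which encodes TIM-3, was at 27.3 and 12.2 CPM on day 14, against 49.6 and 118 CPM on day 7 (adjusted p = 0.0673 by edgeR).

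Transcription factors tied to memory and quiescence included 3 rises and 0 falls among 18, all 3 also called higher in KO SLEC, where 10 were higher and 1 lower. Bach2 (chr4:32238804-32586108, plus strand), a repressor that restrains effector differentiation, was at 38.6 and 40.4 CPM on day 14, against 15.9 and 9.98 CPM on day 7 (1.61 ± 0.22, adjusted p = 2.13e-04 by edgeR). Bcl6, a repressor of effector genes, was at 31.9 and 24.5 CPM on day 14, against 10.1 and 6.91 CPM on day 7 (1.73 ± 0.27). Zeb1 was at 60.6 and 57.3 CPM on day 14, against 29.9 and 36.6 CPM on day 7 (0.82 ± 0.18). The 3 kept their calls in each of the 12 fits that left out one library, and the ratio of day 14 replicate 2 to replicate 1 was 1.05 for Bach2 and 0.768 for Bcl6. The list's count was 6 without day 7 replicate 1 and 5 by DESeq2. Tcf7, the factor TCF1 of stem-like and memory cells, was at 214 and 180 CPM on day 14, against 81.1 and 33.4 CPM on day 7, and its change did not pass (1.79 ± 0.68, adjusted p = 0.175 by edgeR).

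Among 16 effector transcription factors, 1 was called (6.25%, against 9.94% over all genes), the AP-1 family factor Batf. Batf was at 28.7 and 22.0 CPM on day 14, against 45.5 and 47.5 CPM on day 7 (−0.88 ± 0.19). The count was 4 without day 7 replicate 1 (1 higher and 3 lower) and 0 without day 14 replicate 2. The effector regulators that were followed did not pass. Tbx21, which encodes T-bet, was at 428 and 336 CPM on day 14, against 438 and 397 CPM on day 7, Eomes was at 71.8 and 68.6 CPM on day 14, against 57.3 and 68.3 CPM on day 7, and Id2 was at 350 and 303 CPM on day 14, against 302 and 394 CPM on day 7. Zeb2, a driver of terminal effector differentiation, was at 1166 and 1076 CPM on day 14, against 1051 and 534 CPM on day 7 (adjusted p = 0.186 by edgeR). Cx3cr1, a receptor of effector cells, was at 796 and 749 CPM on day 14, against 735 and 598 CPM on day 7 (adjusted p = 0.524 by edgeR). For Tbx21 and Id2 the days overlapped.

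Survival genes of the BCL2 family had 1 rise and 1 fall among 14, both shared with KO SLEC, and the rise alone without day 14 replicate 2 or day 7 replicate 2. Bcl2 (chr1:106538178-106714274, minus strand), which blocks the mitochondrial death pathway, was at 75.2 and 91.8 CPM on day 14, against 22.6 and 30.6 CPM on day 7 (1.65 ± 0.27, adjusted p = 0.00171 by edgeR), and at 245 and 240 CPM in WT MPEC. Bak1, which opens the outer mitochondrial membrane, was at 46.2 and 36.4 CPM on day 14, against 56.3 and 99.3 CPM on day 7 (−0.92 ± 0.22). Bcl2 and Bak1 made a called share of 14.3%, against 9.94% over all genes. The days did not overlap in either gene, as in every called gene. The Bcl2 call held in each of the 12 fits that left out one library. With the term for B cell RNA the log2 changes were 1.13 for Bcl2 and −1.345 for Bak1, and neither passed.

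Circadian clock genes had 4 rises and 0 falls among 14, with a median of 0.86, and 3 of the rises were also called in KO SLEC. Tef (chr15:81802421-81826863, plus strand), a clock-output factor, was at 44.2 and 47.5 CPM on day 14, against 14.2 and 9.22 CPM on day 7 (1.98 ± 0.24, adjusted p = 7.57e-05 by edgeR). Nr1d2, which encodes REV-ERBβ, was at 48.6 and 54.0 CPM on day 14, against 21.1 and 10.6 CPM on day 7 (1.70 ± 0.27). Per3 was at 6.11 and 9.24 CPM on day 14, against 2.78 and 2.38 CPM on day 7. Dbp was at 9.35 and 8.29 CPM on day 14, against 4.85 and 3.302 CPM on day 7. Of the 12 fits that left out one library, Dbp lost its call in 9 and Per3 in 3. The sources used here do not give the hour of collection, and its part in these changes was not tested. The list's count was 2 without day 14 replicate 2 or without day 7 replicate 2.

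The rises shared by both genotypes included genes outside the lists. Rab6b (chr9:103111787-103185276, plus strand), a small GTPase of Golgi transport, was at 25.8 and 21.4 CPM on day 14, against 2.94 and 2.84 CPM on day 7 (3.02 ± 0.30, adjusted p = 9.71e-06 by edgeR), with a log2 change of 3.602 in KO SLEC. Peg13, an imprinted long noncoding RNA, was at 48.2 and 57.1 CPM on day 14, against 11.4 and 4.45 CPM on day 7 (2.73 ± 0.31). Insr, the insulin receptor, was at 10.4 and 13.2 CPM on day 14, against 2.78 and 2.53 CPM on day 7 (2.15 ± 0.39). For these 3 genes the libraries within a day lay close together compared with the gap between days. Evi5l, Crebl2, Snx30, Mgrn1, Arhgap5, Socs5 and Oplah were also among the 12 largest shared rises, at log2 changes of 1.77 to 2.38 in WT SLEC and 1.32 to 2.21 in KO SLEC.

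Many of the WT rises that were not called higher in KO SLEC, named unshared rises here, were higher in day 14 replicate 2 than in replicate 1. Of these 355 genes, 155 (43.7%) were at 2 or more times the replicate 1 level in replicate 2, against 1 of the 323 shared rises, 46 of the 759 falls (6.06%) and 7.23% of all genes. The median ratio of replicate 2 to replicate 1 was 1.602 in the unshared rises, 0.976 in the shared rises and 0.988 over all genes. B cell genes were among the unshared rises, with 19 of 23 called higher and 0 lower, a median log2 change of 5.34 and 0 called in KO SLEC. Cd22, a B cell inhibitory receptor, was at 47.0 and 207 CPM on day 14, against 0.636 and 5.91 CPM on day 7 (5.26 ± 1.09, adjusted p = 0.0297 by edgeR). Ighm, the IgM heavy chain, was at 138 and 325 CPM on day 14, against 18.0 and 26.4 CPM on day 7 (3.38 ± 0.55). Replicate 2 held at least 2 times the replicate 1 level in 22 of the 23 B cell genes, with a median ratio of 4.01. The B cell count was 4 without day 7 replicate 1, 5 without day 7 replicate 2, 11 without KO day 14 replicate 1 or replicate 2, 12 by DESeq2 and 11 with no filter. The plot of these ratios shows the unshared rises shifted to the right.

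**Figure D5:**
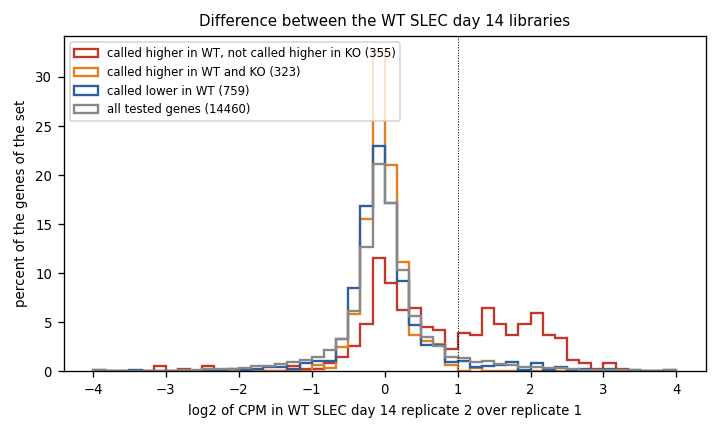
Distribution of log2 (replicate 2 over replicate 1) within WT SLEC day 14 for 355 WT rises not called higher in KO SLEC, 323 WT rises also called higher in KO SLEC, 759 WT falls and all 14460 genes. The unshared rises spread to higher ratios (43.7% at 2-fold or more), and the shared rises and the falls centre near equal levels.

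Other unshared rises included T cell signalling genes. Of 23 immediate early genes, 2 were called higher, Egr3 and Nfkbid, and 1 lower, the NF-κB inhibitor gene Nfkbia, and 0 had the same call in KO SLEC. The count was 1 without day 14 replicate 1 or replicate 2, and 4 without day 7 replicate 1 (all higher) or replicate 2 (1 higher and 3 lower). Egr3, an immediate early factor downstream of the T cell receptor, was at 10.6 and 11.6 CPM on day 14, against 0.397 and 1.54 CPM on day 7 (3.50 ± 0.54, adjusted p = 5.52e-04 by edgeR), and at 1.42 and 0.962 CPM on day 14, against 1.64 and 4.29 CPM on day 7, in KO SLEC. Its WT and KO changes were not told apart after adjustment (adjusted p = 0.248 by edgeR). Nfkbid, a nuclear IκB protein, was at 62.3 and 50.7 CPM on day 14, against 29.56 and 29.03 CPM on day 7 (0.95 ± 0.28). The Nfkbid call was lost in 6 of the 12 fits that left out one library. The ratio of day 14 replicate 2 to replicate 1 was 1.09 for Egr3 and 0.813 for Nfkbid. With the B cell term their log2 changes were 2.63 and 0.50 and did not pass. Lta, lymphotoxin, was at 0.957 and 4.75 CPM on day 14, against 0.238 and 0.307 CPM on day 7, and Ifngr2, a chain of the interferon-γ receptor, was at 3.46 and 9.05 CPM on day 14, against 0.715 and 0.0768 CPM on day 7. Both were highest in day 14 replicate 2, as the B cell genes were, and with the B cell term their changes were 0.14 for Lta and 1.17 for Ifngr2, neither called. The source of these rises was not tested. Lta and Ifngr2 were the called members, with Tnfsf14, of 14 cytokines and chemokines and 22 cytokine receptors. The called shares of these lists were 14.3% and 4.55%, against 9.94% over all genes.

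Lists that touched on signals of infection held few calls. Of 32 type I interferon response genes, 20 genes of the T cell receptor complex and 15 genes of amino acid and iron uptake, 0 were called in each by edgeR. At an unadjusted p under 0.05 the counts were 6, 4 and 1, and DESeq2 called 0, 2 and 0. Without day 7 replicate 1 the interferon list had 2 calls. The interferon list had a median near 0, and Zbp1, a nucleic acid sensor, was at 60.6 and 67.6 CPM on day 14, against 77.0 and 99.1 CPM on day 7 (adjusted p = 0.0989 by edgeR). Gimap7 was the called member of 8 GIMAP GTPases (12.5%, against 9.94% over all genes), at 168 and 131 CPM on day 14, against 244 and 294 CPM on day 7.

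A term for B cell RNA, the log2 summed CPM of the B cell list, was added to the fit of all 12 libraries. With it, 331 genes were called, 80 higher and 251 lower, and the median standard error of the called rises went to 0.68 with the term, against 0.31 without. The term kept 48 of the 678 rises and 213 of the 759 falls, while 577 rises and 738 falls kept their sign. G2 and mitosis kept 31 called falls, histones 32 and S phase genes 14. The sizes were not stable for all of them. Hist1h1b was at −6.82 with the term, against −4.83 without, and Cenpf at −5.83, against −3.79. Cenpa, at −2.01, and Pcna, at −1.31, stayed near their values without the term. The respiratory chain, proteasome, ribosomal protein, ribosome biogenesis and clock lists had 0 calls by edgeR with the term, S100 and related genes 2 falls and 1 rise, cytotoxic genes 1 (Gzmk) and the memory factors 1 (Bach2). The B cell list itself had 0 calls with the term, but the term was built from that list, so this count is not a test. The sizes of some changes in these lists stayed near those without the term, and others shrank. With the term the log2 change was −1.33 for Cox5b, −1.15 for Cox5a, −1.12 for Psmd8, 1.39 for Utp20 and 1.99 for Nr1d2. It shrank to −0.58 for Cox6b1 and −0.58 for Uqcrfs1, and to −0.70 for Gzma, against −1.52 without the term. Each of these had a larger standard error with the term. Over the called falls the median was −1.18 with the term, against −1.07 without, and over the called rises it was 0.98, against 1.34.

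Among the named genes, 109 were called, and 60 of them kept their call in each of the 12 fits that left out one library. Calls that were lost without day 14 replicate 2, and in no other such fit, included those of Klrg1, Batf, Ifngr2, E2f1, Txnip, Tsc1, Gimap7, Cbx7, Ebp, Arhgap5, Pik3r2 and Oplah. Mki67, Tpx2, Hist1h3f, Gpi1 and mt-Nd5 lost theirs without either one of the day 14 libraries. Ccr7 and Mybbp1a lost theirs without day 14 replicate 2 or day 7 replicate 1, and Itgax, Bak1, Tnfrsf9, Ccne2 and Cdkn1a without day 14 replicate 2 or day 7 replicate 2. Cdkn2c and Hmgcs1 depended on 3 of the 4 WT libraries, the exception being day 7 replicate 1, and Cd22 lost its call in 10 of the 12 fits.

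Ola1 (ENSMUSG00000027108.15, chr2:73092801-73218924, minus strand), an Obg-like ATPase, was the one gene whose change differed between genotypes. It was at 1639 and 1560 CPM in WT SLEC on day 14, against 81.6 and 95.5 CPM on day 7 (4.17 ± 0.33, adjusted p = 5.20e-05 by edgeR). In KO SLEC it was at 2488 and 3813 CPM on day 14, against 2285 and 2764 CPM on day 7 (0.32 ± 0.29, adjusted p = 0.493 by edgeR). The low values were thus those of the 2 WT day 7 libraries, and WT MPEC held 2472 and 4192 CPM. The difference of the changes was 3.86 ± 0.43 log2 units (adjusted p = 0.0316 by edgeR). It did not pass without WT day 14 replicate 2 (adjusted p = 0.189 by edgeR), WT day 7 replicate 1 (0.638) or replicate 2 (0.0565), KO day 14 replicate 1 (0.0515), KO day 7 replicate 1 (0.295) or replicate 2 (0.467), or with the B cell term (0.242), while its size stayed between 3.59 and 4.86.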

How the data were processed

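RNA was extracted from sorted OT-I cells with a micro-scale kit and made into stranded SMART-Seq libraries, per the labels' protocols. The authors deposited 1 table of raw read counts per gene for 12 libraries. The submitters' processing notes name bcl2fastq, STAR 2.6.1a and the build GRCm38. Which program counted the reads, on which annotation and with which strand setting, the sources used here do not say, so overlapping and antisense genes are uncertain.

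From these counts, edgeR 4.0.16 (R 4.3.3, limma 3.58.1) kept 14460 genes by filterByExpr, scaled by TMM and fitted a robust quasi-likelihood model with 6 group means to all 12 libraries, which leaves 6 residual degrees of freedom. Contrasts were day 14 minus day 7 in WT SLEC, the same in KO SLEC, and their difference, with Benjamini-Hochberg adjustment over 14460 genes. CPM in the text uses TMM-scaled totals. A value after ± is the standard error. Of the 55421 gene IDs, 99.7% matched GENCODE annotation of GRCm38, which gave coordinates, and 27 symbols altered by a spreadsheet were restored by ID. Promoter windows are RefSeq's, and 36 of 40 histone genes and 31 of 35 G2 and mitosis genes matched. Figures were drawn with matplotlib 3.10.9. The fit was tested on simulated data. Floors cover counting error only.

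The members and gene lists were chosen with earlier results of these data known, so no list gets a test of its own and no pattern here is independent support. Genes were named by a rule. With a mean of at least 3 on the log2 CPM scale and days that did not overlap, they were the 12 largest rises and falls in WT and the 12 shared with KO, genes of the called difference, up to 4 called and 2 other members of each list with the smallest p, whatever their level, every member of 5 other-cell lists, and 14 followed genes. Prf1, Cd4, Ly6d, Cxcr5, Zbtb7b, Tyrobp, Klra8 and the 5 genes named for their E2F letters were chosen after their values were seen. Same-numbered libraries of different groups did not deviate together (correlations of −0.13 to 0.117), so numbers were not treated as pairs. DESeq2 1.42.0, other scaling, no filter, a replicate block, a B cell term, the 4 WT SLEC libraries alone and each library left out were alternatives. Some genes allowed by this rule are left out of the text and not reported here.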

Additional observations from a re-analysis of the deposited data

Results flagged for a closer look

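The change of Ola1 from day 7 to day 14 differed between the genotypes by the test of the difference itself, with WT minus KO at 3.86 log2 units. Its WT SLEC day 7 libraries, at 81.6 and 95.5 CPM, were the lowest of the 12 libraries, and the other 10 lay between 1560 and 4192 CPM.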

How the results depend on the processing

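The WT comparison called 1437 genes. The count was 331 with the B cell term, 330 with the 4 WT SLEC libraries alone, and 417 to 1563 when one library was left out, 417 without WT day 14 replicate 2, 767 without WT day 14 replicate 1 and 903 without WT day 7 replicate 2. It was 1425 with RLE scaling, 1731 with no filter, 1411 with DESeq2 and 1391 with a replicate block. Rises made up 47.2% of the calls, 24.2% with the B cell term and 32.7% with the 4 libraries alone. The KO comparison called 2487 genes, and 834 to 2930 when one library was left out, 834 without KO day 14 replicate 2, 1367 without KO day 14 replicate 1 and 1352 without KO day 7 replicate 2. The WT minus KO difference called 1 gene, 109 with no filter, 28 with DESeq2, 2 with a replicate block, 0 with the B cell term and 0 to 96 when one library was left out, 96 without WT day 7 replicate 2 and 15 without WT day 14 replicate 1. With the B cell term the change reversed for Cd22 (−0.21), Ralgps2 (−0.21), Cd72 (−0.10), Klrg1 (0.066) and Scd1 (−1.12), and 34 of 109 named called genes kept their calls. Cd22 and Cd72 belong to the list that the term was built from. With one library left out, 67 to 105 of the 109 did, and 60 did in every such fit. Standard errors were larger with the B cell term, and the cause of these moves was not tested. Same-numbered libraries shared only a number. With 2 libraries per group, small changes and genes near the 3-count floor are not resolved.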
